A study of Sus scrofa with 599 samples.

Results

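Enhancers of the upper layer of backfat (ULB), the subcutaneous adipose tissue (SAT) of this study, were followed from a normal diet through weight gain to weight loss. The members described here are the autosomal enhancer regions of the weight-loss ULB table that overlapped a region in both weight-gain ULB tables and none in the normal-diet ULB table. They numbered 1302 of the 25311 autosomal regions of the weight-loss ULB table, or 5.14%. They were chosen by their presence or absence in the 4 ULB tables, so that pattern is a description and not a result.

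All samples were taken from female adults of the Bama pig, which is a miniature breed. Pigs of the NC group stayed on a normal diet, pigs of the WG group were fed a high-fat diet for several months, and pigs of the WL group were high-fat-fed animals then put on strong caloric restriction, so that WL pigs share the high-fat feeding with WG pigs. Each ULB table was made from pooled libraries of chromatin immunoprecipitated for H3K27ac: 3 libraries for NC, 4 for WG group 5, 6 for WG group 6 and 2 for WL, with 3, 1, 3 and 2 input libraries. WG groups 5 and 6 were set up by the authors from the estimated cell composition of the samples, not by a treatment. One pooled table per group leaves no replicate for a region, so no test was made on the regions themselves. RNA-seq of ULB covered 5 NC, 38 WG and 10 WL pigs, with the WG pigs not restricted to groups 5 and 6, and Hi-C covered 5 NC, 39 WG and 10 WL samples.

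H3K27ac, the acetylation of lysine on histone H3, marks active enhancers and promoters, and enhancers are stretches of DNA that raise transcription of genes on the same chromosome, often across intervening genes. In white fat, enhancers bound by PPARG and C/EBP factors keep adipocyte genes active, and enhancers of resident macrophages, lymphocytes and endothelial cells contribute to the same tissue sample. Bulk tissue was measured here, so more cells of a type and more signal per cell cannot be told apart.

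The central 300 bases of 6 members are shown because the values below return to these loci. They are RefSeq sequence of Sscrofa11.1, forward strand, named by the gene near each member. Capitals mark a match on either strand to AGGTCA, the nuclear receptor half-site, or to the C/EBP motif TTGCNNAA. The SLAMF8 window (chr4:90678951-90679250) lies between genes, the SLA window (chr4:8261651-8261950) in an intron of TG, and the JAK3 window (chr2:59913151-59913450) in an exon of JAK3. The GPX3 window (chr16:71970551-71970850) lies in an intron of the neighbouring TNIP1, the FABP4 window (chr4:55083551-55083850) between genes, and the PRDM16 window (chr6:64970851-64971150) in an intron of PRDM16.
SLAMF8: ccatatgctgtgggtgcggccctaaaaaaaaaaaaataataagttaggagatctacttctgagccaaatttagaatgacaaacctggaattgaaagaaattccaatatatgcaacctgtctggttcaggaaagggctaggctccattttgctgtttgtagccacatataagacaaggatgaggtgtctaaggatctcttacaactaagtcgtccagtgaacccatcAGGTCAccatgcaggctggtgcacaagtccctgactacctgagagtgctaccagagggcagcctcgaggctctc
SLA: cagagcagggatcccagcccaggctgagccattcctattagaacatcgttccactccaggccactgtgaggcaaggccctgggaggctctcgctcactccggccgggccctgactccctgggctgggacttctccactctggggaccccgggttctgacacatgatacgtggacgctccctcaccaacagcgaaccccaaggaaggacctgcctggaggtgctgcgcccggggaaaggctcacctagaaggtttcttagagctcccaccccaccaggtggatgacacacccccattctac
JAK3: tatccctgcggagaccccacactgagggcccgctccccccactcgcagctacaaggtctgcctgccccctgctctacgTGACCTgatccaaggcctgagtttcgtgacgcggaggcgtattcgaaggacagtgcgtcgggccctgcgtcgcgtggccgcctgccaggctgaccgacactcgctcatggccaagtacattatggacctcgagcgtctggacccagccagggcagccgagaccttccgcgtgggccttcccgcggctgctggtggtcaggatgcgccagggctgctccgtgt
GPX3: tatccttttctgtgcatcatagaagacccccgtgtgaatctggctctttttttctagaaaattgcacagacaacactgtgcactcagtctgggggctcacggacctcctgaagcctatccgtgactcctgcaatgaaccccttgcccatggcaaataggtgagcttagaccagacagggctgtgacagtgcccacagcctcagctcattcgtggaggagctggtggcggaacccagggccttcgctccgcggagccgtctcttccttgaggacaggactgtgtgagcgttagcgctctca
FABP4: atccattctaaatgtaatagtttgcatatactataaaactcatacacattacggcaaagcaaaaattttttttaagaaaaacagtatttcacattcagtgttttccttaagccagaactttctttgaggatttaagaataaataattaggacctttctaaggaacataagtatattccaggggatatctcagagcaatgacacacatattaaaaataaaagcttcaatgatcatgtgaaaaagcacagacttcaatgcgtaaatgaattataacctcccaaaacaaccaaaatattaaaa
PRDM16: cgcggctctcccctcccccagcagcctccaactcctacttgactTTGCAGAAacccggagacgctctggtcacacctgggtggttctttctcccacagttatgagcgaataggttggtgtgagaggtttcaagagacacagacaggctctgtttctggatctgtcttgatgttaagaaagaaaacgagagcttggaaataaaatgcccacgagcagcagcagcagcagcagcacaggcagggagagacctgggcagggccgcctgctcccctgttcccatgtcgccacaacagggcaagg

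The SLAMF8 and JAK3 windows each held 1 half-site, the PRDM16 window held 1 C/EBP match, and the other windows held no match to the 6 motifs searched. Over all members, 21.5% of central windows held AGGTCA, against 19.2% of all WL ULB regions. The C/EBP motif was in 10.8% of members and 12.6% of all regions, the AP-1 motif TGANTCA in 7.45% and 10.0%, and the glucocorticoid receptor motif ACANNNTGT in 6.45% and 7.49%. The EBF motif was in 1.38% and 1.03%, and the PU.1 motif GAGGAAGT, which macrophage and B cell enhancers carry, in 2.53% and 2.02%. The central windows of members were richer in G and C, with a median of 50.7% against 46.7% over all WL ULB regions. Both the motif shares and the base composition are descriptions of single windows and do not show binding.

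Members were mostly modest regions. Their median width was 6000 bases (range 200 to 220400) against 8000 over all WL ULB regions, and 75.9% consisted of 1 peak against 67.3%. H3K27ac signal in the WL table, as depth-scaled read density times region width, less that of the input, had a median of 592 in members and 827 over all regions. Highly active (super) enhancers, the regions above the authors' signal cutoff, made up 17 of the 1302 members (1.31%) and 1652 of all 25311 regions (6.53%). Width, signal and this share are not independent of the rule, because it left out every region that overlapped an NC region. Wider regions have more bases that can overlap. WL ULB regions overlapping an NC region had a median width of 12200 bases and a median signal of 1600. In those found in no other ULB table these were 2600 bases and 202. Of the members, 78 overlapped a super-enhancer of WG group 5 and 81 one of WG group 6, and 4 were marked as super-enhancers in all 3 tables. The centre of a member lay in an intron of a protein-coding gene (PCG) in 664 cases (51.0%), in an exon in 104 (7.99%) and between genes in the other 534. Over all WL ULB regions 52.8% were intronic and 6.79% exonic. The median distance to the nearest start site was 27100 bases.

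The distance from a member to the nearest NC ULB region had a median of 14400 bases (quartiles 4800 and 30400). 40 members had an NC region within 1 kb, 332 within 5 kb and 525 within 10 kb, and 175 lay over 50 kb away. The nearest members sat 200 bases from an NC region. These 5 members lay near SIPA1L3, OSBPL5, TTLL4, TUBB6 and the CHTF18, GNG13 and RPUSD1 genes. The farthest, at chr8:106731201-106732400, was 1530200 bases from any NC region and had no placed gene within 10 kb. Just outside the rule stood 4 regions that shared 200 bases with an NC region, near CNOT3, ULK2, ASGR1 and GRM4. Members fell in 1114 gaps between NC regions, and 153 gaps held 2 or more. The gap near ATF3 on chromosome 9 held 5 members over 67400 bases, as did a gap near PTP4A3 and GPR20 and a gap near ARC and PSCA on chromosome 4.

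The 10 members with the highest WL signal all overlapped a region in each of the NC tables of the 3 visceral ATs. All were marked as super-enhancers in WL, which follows from the choice, because that mark is a cutoff on the same signal. Of these, chr3:93452001-93548200 within TTC7A had a signal of 55500 in WL, 14500 in WG group 5 and 33600 in WG group 6. The member chr5:17368201-17406200 had no placed gene within 10 kb. Others of these 10 lay near ANXA6 and TNIP1, near CRTC2 and 5 other genes, near RNF19B, near TSC2, near SPNS2, near GNB1 and TMEM52, and near DLL4, CHAC1 and VPS18. From the nearest NC ULB region, the TTC7A member lay 800 bases away and the strong member near ANXA6 1200. The members near SPNS2, DLL4, RNF19B and GNB1 lay 1800, 2400, 2600 and 3200 bases away. Those near CRTC2, on chromosome 5 and near TSC2 lay 12400, 15800 and 70200 bases away. The median over all members was 14400 bases. Signals of different tables rest on regions of different extent and are given side by side without a comparison.

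FABP4, the fatty acid-binding protein of mature adipocytes, lay in a member of 37000 bases, chr4:55065201-55102200, whose WL signal was 14200. The nearest NC ULB region lay 14800 bases from that member. In the 5 NC pigs, FABP4 had the highest median of all 970 genes near members, with 8370, 6980, 9320, 8010 and 8540 TPM. WG pigs ran from 4090 through a median of 9510 to 24400 TPM, and WL pigs from 10200 through 14000 to 22200 TPM. Every WL value stood above every NC value, while the difference did not pass the threshold in edgeR (log2 fold change 0.55 ± 0.22 SE, adjusted p = 0.0921). The other 6 adipocyte markers, ADIPOQ, PLIN1, CIDEC, LEP, LIPE and PPARG, each had 1 NC ULB region within 10 kb. Only 1 NC replicate number was shared by the H3K27ac and RNA-seq libraries, so these levels and the NC table come largely from different samples. Across all 970 genes near members, 804 had a median above 0.5 TPM in NC pigs and 35 had one above 100 TPM. The shares over all PCGs were not computed, so these counts do not set near genes apart. NC signal inside members was not measured here, and the part of the pooling and of the peak retention across unequal numbers of libraries was not tested.

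Visceral ATs were not used to choose members: the greater omentum (GOM) and the fat of the mesentery (MAD) and of the retroperitoneum (RAD). Of the 1302 members, 1297 (99.6%) overlapped a region in at least 1 of the 14 tables of the visceral ATs, against 96.7% of the other WL ULB regions, and 1133 (87.0%) overlapped a region in an NC table of a visceral AT, against 87.3%. In the NC tables alone, members were found less often than the other WL ULB regions in GOM (56.2% and 71.1%) and MAD (48.8% and 67.9%) and at a like share in RAD (72.0% and 72.2%). In each of the 8 WG and 3 WL visceral tables the order was the other way, as in WG group 4 MAD (83.5% and 72.1%), WG group 6 RAD (80.6% and 68.1%), WL GOM (80.5% and 73.9%) and WL MAD (92.2% and 85.7%). The rule required members to overlap both WG ULB tables, whereas 3420 of the other WL ULB regions were in no other ULB table. WL ULB regions present in all other ULB tables stood above members in each of the 14 visceral tables. Their shares were 93.1% in WG group 4 MAD, 91.0% in WG group 6 RAD, 90.7% in WL GOM and 97.6% in WL MAD. These shares carry no test, because each table is 1 set of regions without replicates. NC MAD and WG group 6 RAD each came from 1 H3K27ac library, so their shares rest on 1 sample.

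**Figure D1:**
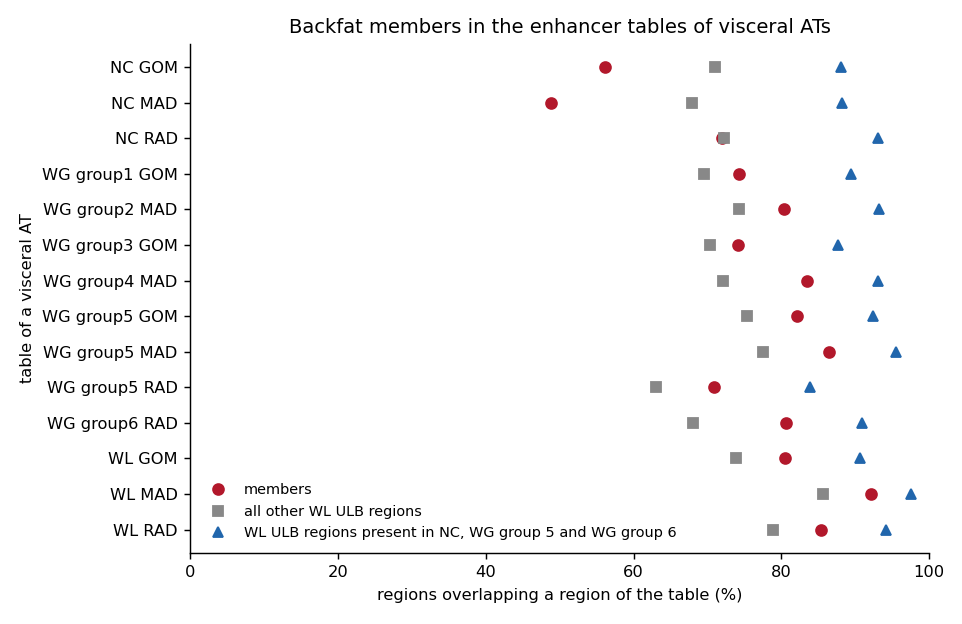
Share of regions (percent, horizontal axis) that overlapped a region of each of 14 visceral tables (vertical axis), for the 1302 members, for all other WL ULB regions and for WL ULB regions present in all other ULB tables. Members lie left of the other regions in NC GOM (56.2% against 71.1%) and NC MAD (48.8% against 67.9%) and right of them in every WG and WL table. They lie left of the regions present in all other ULB tables throughout.

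The same sequence of absence in NC and presence in all WG tables and in WL was looked for at members within each visceral AT. In MAD it held at 361 members (27.7%) against 8.57% of the other WL ULB regions, in GOM at 217 (16.7%) against 4.64%, and in RAD at 151 (11.6%) against 4.45%. Absence in NC MAD rests on 1 H3K27ac library, as does presence in 1 of the WG tables of RAD. At least 1 visceral AT showed it at 538 members (41.3%) against 14.7%, and all 3 showed it at 17 members (1.31%) against 0.312%. Conversely, 519 members in GOM, 495 in MAD and 550 in RAD were present in NC, in all WG tables and in WL of that AT. The tables of a group can share animals, whose part in these shares was not tested.

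Only 5 members overlapped no visceral region. Their WL signals were low, from 231 to 629. 4 lay between genes, 2 of them on chromosome 8 near chr8:55076601-55115200, and the fifth, chr6:64970201-64971800, lay in an intron of PRDM16, a regulator of thermogenic fat identity. PRDM16 was too low to be tested, with medians of 0.63 TPM in WG and 0.62 TPM in WL pigs.

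Genes near members were PCGs whose body, extended by 10 kb, overlapped one. 869 members had such a gene and 433 had none, giving 970 genes, of which 786 were tested in NC vs WG. Genes were called DEGs when edgeR gave a change of more than 1.5 times with an adjusted p under 0.05. Between NC and WG pigs, 18 near genes were DEGs (2.29%, background over all PCGs 2.38%). Of these, 12 were higher in WG (1.53%, background 0.507%) and 6 were lower (0.763%, background 1.87%). Of genes near other WL ULB regions only, 0.45% were higher and 1.61% lower. The median log2 fold change was 0.05 over near genes and 0.01 over all PCGs. Libraries differed in the share of TPM on PCGs. 2 of the 5 NC, 1 of the 38 WG and 3 of the 10 WL libraries had under 90% of their TPM on PCGs. Without these libraries 0 of 780 near genes passed the edgeR threshold in NC vs WG. At an unadjusted p under 0.05 in edgeR there were 83, for which the share over all PCGs was not computed. Over all PCGs 47 passed the threshold (0.35%), 4 higher in WG and 43 lower. The count of near genes was 7 without NC replicate 2 (0.897% against 1.98% of all PCGs) and 3 without replicate 5 (0.386% against 0.871%). It was 3 without replicate 9 (0.386% against 0.828%) and 11 without replicate 12 (1.41% against 2.11%). DESeq2 called 23 on all libraries (2.93% against 3.19% of all PCGs). Leaving out libraries also leaves fewer NC samples, and the parts of sample number and library composition cannot be told apart here.

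Between NC and WL pigs, 121 of 796 near genes were DEGs (15.2%, background 14.8%). 60 were higher in WL (7.54%, background 5.39%) and 61 were lower (7.66%, background 9.37%). Without the libraries of low PCG share, 25 were higher (3.17% against 2.41% of all PCGs) and 33 lower (4.18% against 6.26% of all PCGs). Without NC replicate 9 alone 40 were lower (5.04% against 6.41% of all PCGs). Between WG and WL pigs, 69 of 796 near genes were DEGs (8.67%, background 8.12%), with 21 higher in WL (2.64%, background 3.22%) and 48 lower (6.03%, background 4.90%). NC vs WG and NC vs WL share their NC pigs. The total share of DEGs near members was thus close to the background in all 3 comparisons.

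**Figure D2:**
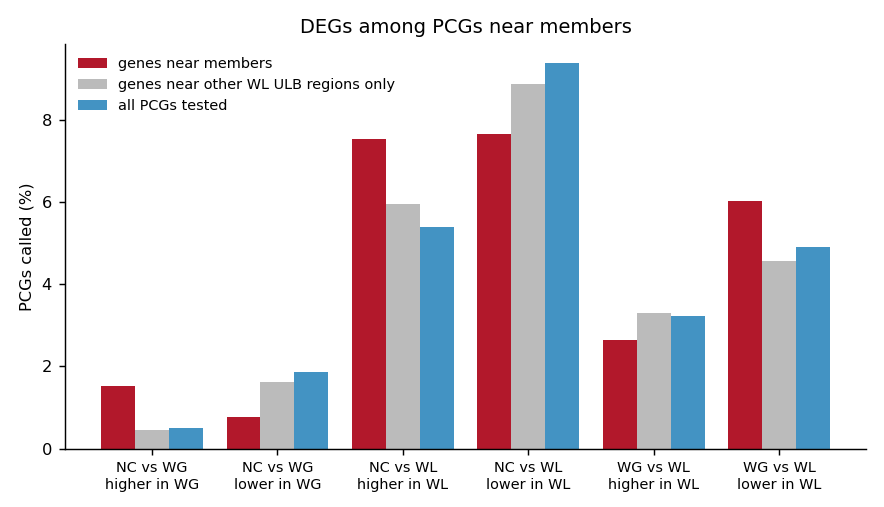
Share of PCGs called (percent, bars from 0) in each comparison and direction, for genes near members, genes near other WL ULB regions only and all PCGs tested. Genes near members stand at 1.53% against 0.507% of all PCGs for higher in WG than NC and at 7.54% against 5.39% for higher in WL than NC.

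11 near genes were DEGs in both NC vs WG and NC vs WL in one direction, 7 higher and 4 lower, or 1.4% of the 783 tested in both (background 1.62%). Over all 13557 PCGs tested in both, 44 were higher and 175 lower. SLAMF8, a receptor of the SLAM family on myeloid cells, was at 0.998, 0.309, 2.77, 1.5 and 1.56 TPM in the 5 NC pigs. WG pigs had 1.27 to 10.8 TPM (median 4.73) and WL pigs 2.26 to 12.2 TPM (median 5.83). The NC pigs sat at the bottom, and only their highest value overlapped the WL range. The log2 fold change was 1.65 ± 0.39 in NC vs WG (edgeR adjusted p = 0.0111) and 1.79 ± 0.47 in NC vs WL (adjusted p = 0.0144).

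SLA, a Src-like adaptor that dampens antigen receptor signalling, was at 3.42, 2.27, 4.62, 2.84 and 5.72 TPM in NC pigs. It ran from 3.59 to 29.1 TPM in WG and from 2.47 to 32.7 TPM in WL pigs, and both ranges overlapped that of NC. LY9, another SLAM family receptor, was at 1.22, 1.15, 1.83, 1.58 and 2.1 TPM in NC pigs against 2.15 to 10.9 TPM in WL pigs, so that these groups did not overlap (log2 fold change 1.35 ± 0.38, edgeR adjusted p = 0.0191). JAK3, the kinase of common gamma chain cytokine receptors, rose from 1.61 to 3.69 TPM in NC to a median of 4.79 TPM in WG and 6.15 TPM in WL. TRAF1, an adaptor of TNF receptors, rose from 1.87 to 4.26 TPM in NC to medians of 4.79 TPM and 4.99 TPM.

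PDE1B, a calmodulin-dependent phosphodiesterase, was at 3.9, 3.16, 8.51, 2.22 and 6.14 TPM in NC pigs and at 10.4 to 17.4 TPM in WL pigs, with no overlap between NC and WL (log2 fold change 1.15 ± 0.21, edgeR adjusted p = 0.00187). ADAMTS18, a secreted protease of the matrix, had 6.88 to 19.9 TPM in NC pigs and medians of 30.3 TPM in WG and 31.5 TPM in WL pigs.

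Of the 4 lower genes, GPX3, the extracellular glutathione peroxidase, was the most abundant, at 1600, 835, 801, 750 and 1470 TPM in NC pigs. WG pigs ranged from 92.5 to 1570 TPM (median 367) and WL pigs from 98.8 to 920 TPM (median 301). The log2 fold change was -1.39 ± 0.38 in NC vs WG (edgeR adjusted p = 0.0317) and -1.66 ± 0.39 in NC vs WL (adjusted p = 0.00783), with overlapping ranges. PARD3, a cell polarity scaffold, fell from 40.3 to 73.5 TPM in NC to medians of 34.9 TPM in WG and 34.6 TPM in WL. CAMTA1, a calmodulin-binding transcription factor, fell from 43.8 to 111 TPM to medians of 54.7 TPM and 44.6 TPM, and SLC16A9, a carrier of the monocarboxylate family, from 4.58 to 13.2 TPM to 5.12 TPM and 5.26 TPM.

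Without the low-share libraries, the NC vs WG call was lost for all 11 genes with log2 fold changes still of the same sign, as in SLAMF8 (1.46, edgeR adjusted p = 0.224) and GPX3 (-1.55, adjusted p = 0.188). In NC vs WL the call was kept by PDE1B (0.82, edgeR adjusted p = 0.0362), ADAMTS18 (1.08, adjusted p = 0.0261), CAMTA1 (-1.04, adjusted p = 0.00719) and GPX3 (-1.84, adjusted p = 0.0411), and lost by the other 7: SLAMF8, SLA, LY9 (1.01, adjusted p = 0.0832), JAK3, TRAF1, PARD3 (-0.58, adjusted p = 0.116) and SLC16A9 (-0.80, adjusted p = 0.0946).

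**Figure D3:**
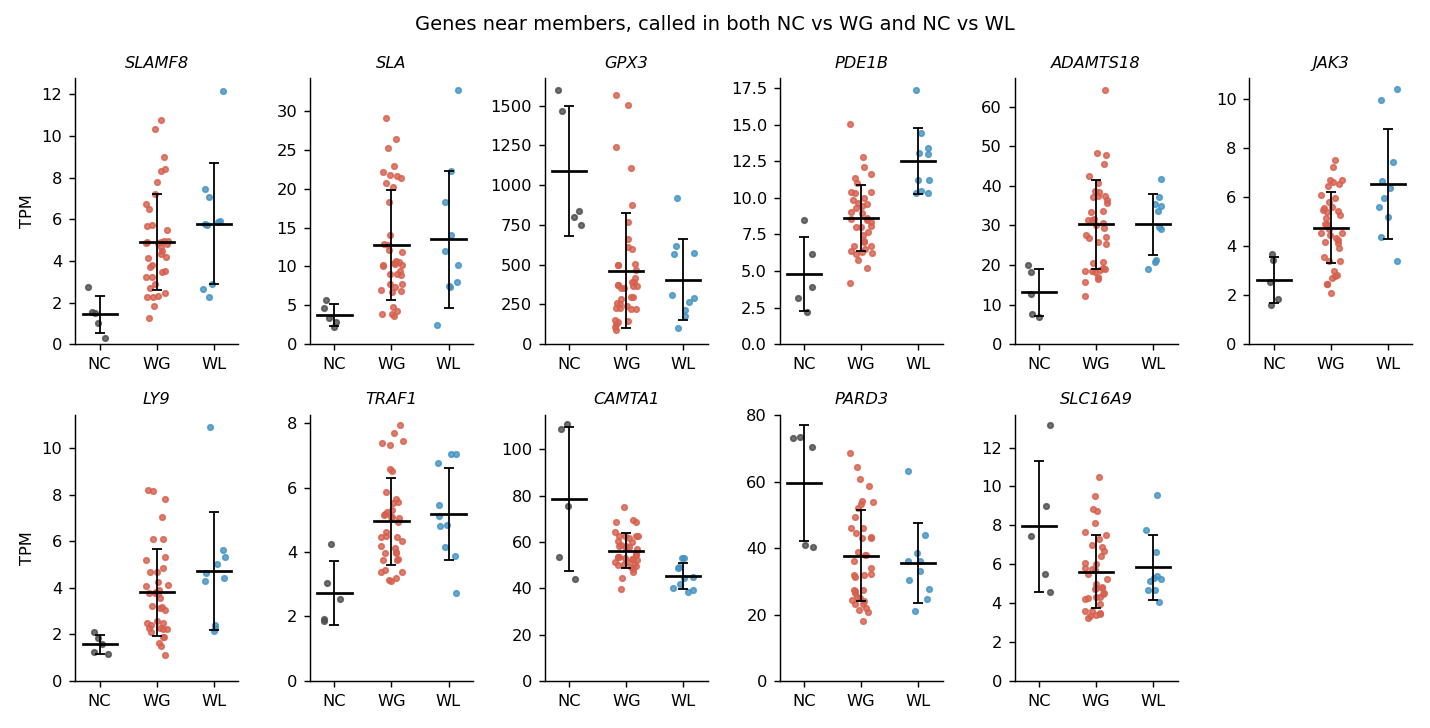
TPM (vertical axes, from 0) of the 11 genes in ULB of NC, WG and WL pigs; each point is 1 pig, and the bar with whiskers is the mean ± SD. PDE1B in WL (10.4 to 17.4 TPM) lies above all NC pigs, and GPX3 in WG and WL spreads below and into the NC range.

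Markers of the cell types in the samples were summed beside these results. The 10 macrophage markers summed to 390 to 657 TPM in NC, 318 to 1080 TPM in WG and 500 to 1360 TPM in WL pigs, and 0 of 9 tested were DEGs in any comparison by edgeR. At an unadjusted p under 0.05 there were 1 in NC vs WG, 2 in NC vs WL and 3 in WG vs WL, and DESeq2 called 2, in NC vs WL. The 7 lymphocyte markers summed to 19.6 to 34 TPM in NC, 23.8 to 52.4 TPM in WG and 29.8 to 45.5 TPM in WL pigs, with 2 of 6 higher in WL than NC pigs and 0 of 6 without the low-share libraries (2 at an unadjusted p under 0.05 in edgeR). In NC vs WG 1 of 5 was higher in WG, and 0 of 5 without the low-share libraries (2 at an unadjusted p under 0.05 in edgeR). The 7 fibroblast or progenitor markers summed to 3280 to 5240 TPM in NC, 1670 to 8170 TPM in WG and 1600 to 2620 TPM in WL pigs. In NC vs WL 4 of 7 were lower in WL, and 2 of 7 without the low-share libraries. In NC vs WG 3 of 7 were lower in WG, and 2 of 7 without the low-share libraries. The 7 adipocyte markers summed to 11800 to 16500 TPM in NC and 16200 to 31200 TPM in WL pigs, a sum in which FABP4 was the largest part, with 1 marker higher and 1 lower in WL. The endothelial markers summed to 514 to 803 TPM in NC and 623 to 1080 TPM in WL pigs, with 2 of 6 higher in WL and 0 of 6 without the low-share libraries (2 at an unadjusted p under 0.05 in edgeR). The smooth muscle or pericyte markers summed to 405 to 695 TPM in NC and 357 to 1270 TPM in WL pigs, with 1 of 6 lower in WL. Skeletal muscle, skin and mesothelial markers summed to at most 37.2, 9.44 and 23.8 TPM in any pig. The part of cell composition in the near-gene results was not tested.

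4 of these markers were themselves near members. TIE1, an endothelial receptor kinase, was higher in WL than NC pigs (log2 fold change 0.71 ± 0.14, edgeR adjusted p = 0.0031), as was the T cell receptor subunit CD3D (0.67 ± 0.23, adjusted p = 0.0493), whereas CD3E was not called (-0.21 ± 0.33, adjusted p = 0.697). Without the low-share libraries neither TIE1 (0.58 ± 0.18, edgeR adjusted p = 0.0633) nor CD3D (0.66 ± 0.27, adjusted p = 0.146) was called. The fourth was FABP4.

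The near genes with the largest rise from NC to WL included PGC, an aspartic protease precursor, at 0 to 1.03 TPM in NC and 0.777 to 9.02 TPM in WL pigs (log2 fold change 2.74 ± 0.70, edgeR adjusted p = 0.0125). PHLDA2, an imprinted growth-restraining gene, rose by 1.87 ± 0.47 (adjusted p = 0.0116), and INHBB, the activin beta B subunit secreted by adipocytes, by 1.74 ± 0.37 (adjusted p = 0.00477). INHBB stood at 3.05, 9.43, 1.34, 1.86 and 6.31 TPM in NC pigs and at 6.95 to 24.3 TPM in WL pigs, and it also rose from WG to WL (1.06 ± 0.23, adjusted p = 0.000989). CDH24, a cadherin, and GZMH, a granzyme of cytotoxic cells, rose by 1.74 ± 0.39 and 1.62 ± 0.42, and no GZMH value of a WL pig (4.15 to 15.6 TPM) fell within the NC range. ATF3, a stress-induced transcription factor whose gap held 5 members, rose by 1.53 ± 0.40 (edgeR adjusted p = 0.0143) from 8.36 to 36.9 TPM in NC to 15.4 to 122 TPM in WL pigs.

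The near genes with the largest fall from NC to WL included TMEM52 (-2.68 ± 0.38, edgeR adjusted p = 0.00023), CHAC1, an enzyme that degrades glutathione (-2.36 ± 0.55, adjusted p = 0.00766), and CPZ, a carboxypeptidase of the matrix (-2.23 ± 0.32, adjusted p = 0.000279). CPZ was at 21.1, 12.3, 10.5, 25.1 and 16.8 TPM in NC pigs and at 1.52 to 7.45 TPM in WL pigs, so that these groups did not overlap. BICRA, a subunit of a chromatin remodelling complex, fell by 1.91 on the log2 scale, the potassium channel gene KCNQ1 by 1.90 and the phosphatase inhibitor PPP1R1A by 1.81. TMEM52, CHAC1, CPZ, BICRA and KCNQ1 also fell from WG to WL. Without the low-share libraries, the NC vs WL call was lost for BICRA (-1.39, edgeR adjusted p = 0.137), ATF3 (1.33, adjusted p = 0.0784) and GZMH (1.52, adjusted p = 0.0505).

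Some genes that shared a member moved in opposite directions, cases chosen after their values were seen. PDE1B rose and PPP1R1A fell in NC vs WL at the same member, chr5:19750801-19754400, which overlaps the bodies of both genes. At the strong member near DLL4, the Notch ligand DLL4 rose in NC vs WL (0.97 ± 0.20, edgeR adjusted p = 0.00421), CHAC1 fell, and VPS18 was not called (0.11 ± 0.20, adjusted p = 0.745). Along chr16:71854201-71973600, which held 4 members, ANXA6 rose (0.79 ± 0.21, adjusted p = 0.0158; 0.62, adjusted p = 0.184 without the low-share libraries), TNIP1 was not called (0.08 ± 0.13, adjusted p = 0.714), and GPX3 fell. SPNS2, an exporter of sphingosine 1-phosphate, rose in NC vs WL (0.89 ± 0.17, edgeR adjusted p = 0.00274), from 5.03 to 10.5 TPM to 14.1 to 25.2 TPM.

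Genes of adipose pathways were looked up among the placed PCGs, of which 7.43% lay near a member. Of 24 placed genes of lipid storage and lipogenesis 1 did (FABP4), of 27 progenitor regulators 1 (BMP7), of 17 mitochondrial and thermogenic genes 1 (PRDM16), and of 14 glucocorticoid and nuclear receptor targets and 16 clock genes 1 (RORA, a nuclear receptor of the clock, in both lists). RORA was lower in WL than NC pigs (-0.73 ± 0.17, edgeR adjusted p = 0.00748), from 32.9 to 43.6 TPM in NC to 14.5 to 37.1 TPM in WL, and fell short of the fold limit without the low-share libraries (-0.53). 0 genes of the lists for lipolysis (15 placed genes), adipokines (13), insulin and nutrient signalling (19), inflammation and chemokines (24) and extracellular matrix (29) lay near a member.

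Hi-C gave an A-B index for each 20-kb bin, in which positive values mark the open, active compartment. The 1796 bins that held a member were mostly of that compartment in every group. Their mean index per sample was 2.15 ± 0.19 (SD, n = 5) in NC, 2.35 ± 0.16 (n = 39) in WG and 2.50 ± 0.14 (n = 10) in WL samples, with overlapping ranges, against -0.64 to 0.08 over all bins in any sample. Bins holding other WL ULB regions only had 1.68 to 2.20 in NC and 1.96 to 2.42 in WL samples, below the member bins within each sample by 0.11 to 0.36. In NC samples, 73.6% to 79.9% of member bins were already positive.

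**Figure D4:**
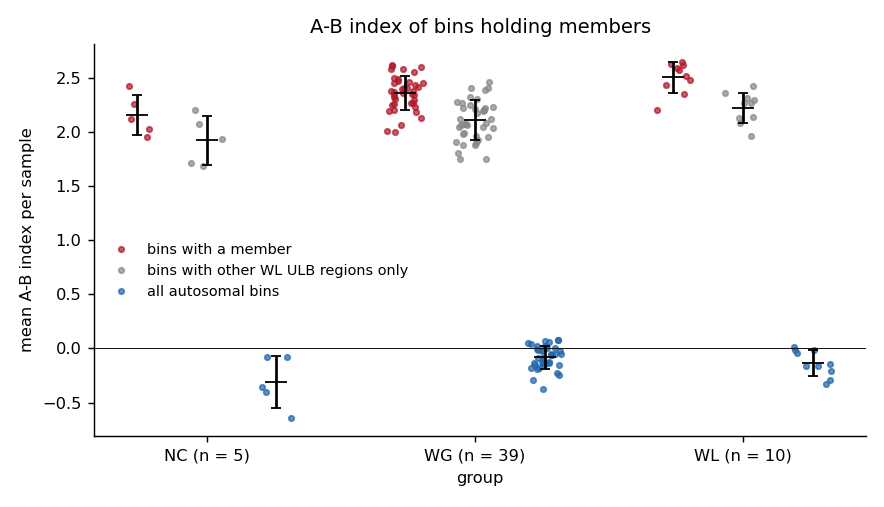
Mean A-B index per sample (vertical axis, no unit) in NC, WG and WL ULB for bins holding a member, bins holding other WL ULB regions only and all autosomal bins. Points are samples, with the mean ± SD. Member bins lie above 1.9 in every sample, and all bins lie near or below 0.

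By limma with an index difference above 0.75 and adjusted p below 0.05, 155 member bins were higher in WG than NC (8.63%, background 5.57%) and 23 were lower (1.28%, background 0.579%). After quantile normalization of the index these were 50 (2.78%; 0.985% of all bins) and 15 (0.835%; 1.08%). In NC vs WL, 293 were higher in WL (16.3%, background 11.6%) and 15 lower (0.835%, background 2.02%), and after quantile normalization 136 (7.57%; 5.62% of all bins) and 50 (2.78%; 3.92%). In WG vs WL, 87 were higher in WL (4.84%, background 2.92%) and 14 lower (0.780%, background 7.04%), and after quantile normalization 34 (1.89%, 2.0% of all bins) and 25 (1.39%; 1.16%). The order of member bins and background thus turned with the normalization for lower bins in NC vs WG and for both directions in WG vs WL. In bins holding other WL ULB regions only, without that normalization, 5.23% were higher and 1.05% lower in NC vs WG. These shares were 14.3% and 1.11% in NC vs WL and 2.73% and 0.742% in WG vs WL. The median difference of those bins was 0.19 in NC vs WG and 0.28 in NC vs WL, against 0.21 and 0.32 in member bins. The median difference of all bins was itself 0.25 in NC vs WG and 0.14 in NC vs WL. Relative to it, member bins differed by -0.04 and 0.18, and after quantile normalization by 0.03 and 0.06. Without NC replicate 5, the number of 1 of the 2 NC RNA libraries of low PCG share, 22 member bins were called in NC vs WG. These were 22 higher in WG (1.22% against 0.603% of all bins) and 0 lower (0.0856% of all bins). Without replicate 12 there were 83, with 75 higher (4.18% against 2.32%) and 8 lower (0.445% against 0.211%).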

How the data were processed

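Adipose samples of ULB were measured by H3K27ac ChIP-seq, RNA-seq and Hi-C, and groups came from the labels. The enhancer signal deposited by the authors is depth-scaled read density times region width from ROSE, on SICER regions of pooled group alignments (BWA 0.7.15 and SAMtools 1.3.1, per the submitters' processing notes). The estimated count and TPM values deposited by the authors came from kallisto 0.43.0 against Sscrofa11.1, and the A-B index score deposited by the authors was computed per 20-kb bin from normalised Hi-C maps. TPM served to filter genes and show levels. 9 columns of the count table match no labelled sample and were not used, and TAD, lncRNA and TUCP counts were left out. Summed estimated counts on PCGs were 8229496 to 22939420 in NC, 13228217 to 22303106 in WG and 10858441 to 21677739 in WL libraries, and the depth of the pooled ChIP and Hi-C data is unknown here.

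Regions were compared with bedtools 2.31.1 (1 base or more). Of 21280 PCGs in the count table, 14821 had a symbol and 13052 were placed on an autosome of the RefSeq annotation of Sscrofa11.1 through it. Estimated counts were rounded and tested with edgeR 4.0.16 (TMM, quasi-likelihood, Benjamini-Hochberg adjustment) for genes above 0.5 TPM in 80% of the samples of a group. The SE of a log2 fold change is its size divided by the square root of F. The A-B index was tested with limma 3.58.1, with a difference limit of 0.75. Both were tested on simulated data. DESeq2 1.42.0, other scalings, filters, covariates, gene assignments and region rules were tried as alternatives, as was leaving out each NC replicate in turn. Where samples of a group came from separate pigs, p-values measure the spread between pigs.

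Named genes were the 8 near genes with the largest rise and fall among DEGs of NC vs WL, near DEGs shared by NC vs WG and NC vs WL, genes of the 10 strongest members, up to 3 per pathway list, and the members unique to ULB or closest to the rule's limit. 4 marker genes near members, the loci whose sequences are printed and the pairs of genes sharing a member were chosen after their values were seen. The members and lists were chosen with earlier results of these data known. A gene that this rule names, and the member at it, are not reported here.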

Additional observations from a re-analysis of the deposited data

Results flagged for a closer look

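Of 94 groups of 4 to 10 values examined, 8 held a sample far from the others, and chance alone flags about 1 group in 20. In WL pigs, PGC was at 9.02 TPM in replicate 5 (next 4.12), SLAMF8 at 12.2 TPM in replicate 4 (next 7.44), TMEM52 at 2.33 TPM in replicate 8 (next 0.912), LY9 at 10.9 TPM in replicate 10 (next 5.65), RFLNA at 3.9 TPM in replicate 10 (next 7.68) and TNIP1 at 88.1 TPM in replicate 9 (next 69.1). In NC pigs, CHAC1 was at 13.6 TPM in replicate 2 (next 5.23) and ANXA6 at 233 TPM in replicate 7 (next 131).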

How the results depend on the processing

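The log2 fold changes of named genes that were called kept their sign under every alternative run, while 35 of the 138 values examined, none of them called, changed sign under at least 1, as did the NC vs WG difference of member bins from all bins in the A-B index (-0.04, and 0.03 after quantile normalization). Counts of near genes called, given as total, higher and lower, were 18, 12 and 6 in NC vs WG. Shares in brackets are those of near genes tested, against all PCGs tested. The totals became 33 without a filter on low genes (3.4% against 5.44%) and 5 with the PCG share of TPM as a covariate (0.636% against 0.743%). They were 0 without low-share libraries (0% against 0.35%) and 30 with a flank of 50 kb (1.87% against 2.38%). Members over 5 kb from NC regions gave 11 (2.13% against 2.38%). Members above the median WL signal of the table gave 9 (2.39% against 2.38%). The higher calls became 1 with the covariate (0.127% against 0.162%), 0 without low-share libraries (0% against 0.0298%) and 6 above the median signal (1.59% against 0.507%). The lower calls became 18 without the filter (1.86% against 4.58%), 0 without low-share libraries (0% against 0.32%) and 15 with 50 kb (0.935% against 1.87%). They were 10 at an overlap of 50% (1.11%), 3 at 5 kb (0.581%) and 3 above the median signal (0.796%), each against 1.87%. Leaving out each NC replicate gave 3 to 19, 2 to 12 and 0 to 7, while all PCGs gave 0.828% to 2.87%, 0.166% to 0.834% and 0.663% to 2.04%. In NC vs WL (121, 60 and 61), the values without low-share libraries were 58 (7.35% against 8.67%), 25 (3.17% against 2.41%) and 33 (4.18% against 6.26%). With 50 kb they were 257 (15.7% against 14.8%), 129 (7.89% against 5.39%) and 128 (7.82% against 9.37%). Above the median signal they were 67 (17.4% against 14.8%), 35 (9.11% against 5.39%) and 32 (8.33% against 9.37%). Members over 5 kb away gave 79 in total and 35 higher, a joint fit gave 40 lower, and leaving out NC replicates gave 82 to 151, 42 to 76 and 40 to 76. In WG vs WL (69), 50 kb gave 131 (8.04% against 8.12%) and the members above the median signal 39 (10.2% against 8.12%). The wider flank and the smaller member sets change the number of genes tested (1636 and 384 against 796 in NC vs WL), and for the others the cause was not tested. Member bins called in the A-B index were 178, 308 and 101 in NC vs WG, NC vs WL and WG vs WL. Quantile normalization gave 65, 186 and 59, with the shares given above. No limit on the difference gave 270 in NC vs WG (12.1% higher and 2.9% lower, against 9.72% and 1.01% of all bins). In WG vs WL it gave 406 (16.9% and 5.68%, against 11.7% and 21.6%). Leaving out NC replicates gave 22 to 229 in NC vs WG, and over all bins 0.603% to 9.05% were then higher. It gave 209 to 362 in NC vs WL, and over all bins 6.67% to 13.9% were then higher. Above the median WL signal lay 474 of the 1302 members.

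Replicate numbers mark different pigs in the 3 groups. Deviations of log-scaled TPM from each gene's group mean correlated between same-numbered samples at -0.493 to 0.372 in NC vs WG. In NC vs WL they correlated at -0.115 to 0.303 and in WG vs WL at -0.517 to 0.101. These values do not show that the numbers pair the samples. Differently numbered samples were not correlated for reference. With the replicate block, edgeR called 0 near genes in NC vs WG (0 higher, 0 lower) and 0 of all PCGs. In NC vs WL it called 8 near genes (1.01% against 2.36% of all PCGs), 2 higher and 6 lower. In WG vs WL it called 59 (7.41% against 7.41%). Member bins called by limma were 0 in NC vs WG and 0 in NC vs WL, as over all bins. In WG vs WL they were 75, with 3.84% higher and 0.334% lower, against 2.95% and 3.57% of all bins.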
